A study of Mus musculus with 41 samples.

Results

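The endothelial identity and flow-responsive genes described here are 10 genes chosen by symbol: Cd34, Klf2, Klf4, Ptprb, Mmrn1, Pecam1, Cdh5, Kdr, Tek and Eng. They stand among 14146 genes listed in at least 1 of 3 expression tables. Of the 10, 8 were listed with MEEC over ligand feeders, 7 with MEEC over the control feeder with inhibitor or vehicle (Eng was not analysed there), and 8 with MEEC on recombinant ligand. Pecam1 and Cdh5 were not analysed here. Expression was measured by RNA-seq in 41 libraries of MEEC, a wild-type (WT) line of mouse embryonic endocardial cells, the cells that line the inside of the heart. In 18 libraries MEEC had grown over OP9-Dll4, OP9-Jag1 or OP9-GFP, which are mouse stromal feeder cells that carry the Notch ligand Dll4, the Notch ligand Jag1 or GFP, lasting 6 h or 24 h (n = 3 in each group). MEEC for the 24 h groups had been seeded more sparsely than for the 6 h groups. In 8 libraries MEEC had been kept for 24 h in 20 µM RO4929097, a gamma-secretase inhibitor that blocks release of the active Notch fragment, or in the vehicle DMSO, and then for 6 h over OP9-GFP (n = 4). A further 15 libraries hold MEEC kept for 38 h on wells with rDLL4 and RO4929097, rJAG1 and RO4929097, rDLL4 and DMSO, rJAG1 and DMSO, or DMSO without ligand, the last hours without serum in all 5 groups (n = 3). All groups come from 1 line, both cell kinds in the co-cultures are of mouse, and the labels do not say whether feeder cells were removed before RNA extraction.

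Endothelial cells are recognised by surface proteins that hold them together and receive growth signals. Kdr is a receptor for VEGF, Tek (Tie2) the receptor for angiopoietins, Ptprb (VE-PTP) a phosphatase that acts on both Tek and the junction protein VE-cadherin, and Eng a co-receptor for BMP and TGF-beta ligands. Cd34 is a sialomucin of endothelial and blood progenitor cells, and Mmrn1 encodes multimerin 1, a large secreted protein stored in platelets and endothelium. Klf2 and Klf4 are zinc finger factors that rise when blood flows over endothelium, with MEF2 factors acting on the Klf2 promoter. In vessels, Notch ligands act between neighbouring endothelial cells, and Notch activity lowers Kdr there.

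Windows of 250 bases before the start of transcription were searched on both strands for the core TGGGAA bound by the Notch factor RBPJ, the box CACCC bound by KLF factors, the E-box CACGTG of HES and HEY repressors, and the MEF2 site. Of 7 members with a RefSeq window (build GRCm38.p6), the windows of Cd34, Klf2, Klf4 and Kdr are shown because the measured changes of these genes under Notch manipulation or time can be read beside them. Matched letters are in capitals, and each stretch ends before the first transcribed base of the annotation. The stretches lie at chr1:194938571-194938818 (plus strand), chr8:72318812-72319032 (plus strand), chr4:55532476-55532725 (minus strand) and chr5:75978459-75978705 (minus strand), each written 5′ to 3′ along its gene.
Cd34: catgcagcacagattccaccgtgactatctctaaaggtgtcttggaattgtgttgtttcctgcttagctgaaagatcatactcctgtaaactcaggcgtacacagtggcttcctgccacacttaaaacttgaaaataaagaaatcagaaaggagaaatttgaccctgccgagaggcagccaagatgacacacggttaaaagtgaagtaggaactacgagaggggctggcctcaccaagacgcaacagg
Klf2: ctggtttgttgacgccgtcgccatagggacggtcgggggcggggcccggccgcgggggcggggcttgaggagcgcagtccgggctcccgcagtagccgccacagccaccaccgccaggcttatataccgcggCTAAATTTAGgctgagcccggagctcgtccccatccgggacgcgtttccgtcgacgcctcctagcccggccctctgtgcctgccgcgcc
Klf4: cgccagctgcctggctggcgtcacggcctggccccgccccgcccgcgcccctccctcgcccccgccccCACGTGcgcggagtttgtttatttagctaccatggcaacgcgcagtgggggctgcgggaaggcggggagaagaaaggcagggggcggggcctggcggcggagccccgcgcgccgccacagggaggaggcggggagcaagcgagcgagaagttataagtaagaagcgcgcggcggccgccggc
Kdr: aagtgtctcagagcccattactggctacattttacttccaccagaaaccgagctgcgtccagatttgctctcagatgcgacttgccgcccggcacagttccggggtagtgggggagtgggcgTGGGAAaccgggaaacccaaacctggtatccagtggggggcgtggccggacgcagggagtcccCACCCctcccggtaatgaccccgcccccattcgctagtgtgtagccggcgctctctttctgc
The Cd34 stretch held none of the 4 motifs. The Klf2 stretch held a MEF2 site between 118 and 109 bases before the start, a motif found in 2.9% of 32851 mouse windows of that length, and a KLF box lay closer to the start, outside the stretch shown. The Klf4 stretch held 1 E-box, found in 6.0% of windows. The Kdr stretch held 1 RBPJ core, found in 21.6% of windows, and 1 KLF box, found in 52.0%. The window of Tek held 1 KLF box and that of Eng 4, and neither held an RBPJ core. The RefSeq start of Mmrn1 lies 19341 bases inside the gene as GENCODE annotates it, so its window is not shown. That window held 2 RBPJ cores and none of the other motifs. No RefSeq window was available for Ptprb. A match describes letters, not a bound site.

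The libraries held 14.1 to 16.8 M reads over ligand feeders, 19.4 to 25.2 M with inhibitor over OP9-GFP, and 11.2 to 34.2 M on recombinant ligand. The labels do not state whether replicate libraries stem from separate cultures, and the p-values thus describe only how these libraries vary, perhaps technically. The 6 h libraries numbered 2 stood apart over all 3 feeders, as did DMSO library 3 and rJAG1 library 2, with library weights in limma of 0.226 to 0.431, against 0.637 to 4.75 in all other libraries. Of 14 endocardial defining markers, 9 were listed in the first table and 8 in the other tables. Gata4 (signal of 44.4 to 55.1), Tbx20 (28.1 to 48.8) and Cdh11 (284 to 548) were present in every library. Others were low, with Npr3 at 1.045 to 8.52 over all libraries, Gata5 at 0.392 to 2.66 over ligand feeders, and, on recombinant ligand, Nfatc1 at 1.62 to 7.33 and Plxnd1 at 1.07 to 9.61, while Pecam1, Cdh5, Emcn, Tie1 and Tmem100 were not analysed here. Of 10 Notch target genes used as a check, 3 of 8 listed rose over OP9-Jag1 at 6 h, 0 over OP9-Dll4 at 6 h, 4 over OP9-Jag1 and 3 over OP9-Dll4 at 24 h, and 5 on each recombinant ligand, while 4 of 6 fell with the inhibitor over OP9-GFP. The 12 listed OP9 stromal markers summed to a signal of 5972 to 10450 over ligand feeders and to 6383 to 9938 on recombinant ligand, where no feeder was present.

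A level is given as the authors' normalized signal, and, where genes are compared with each other, as signal per kb of exon. Over ligand feeders, mean signal per kb over 18 libraries was 21.8 for Klf4, 16.8 for Klf2, 9.05 for Ptprb, 6.45 for Cd34, 2.87 for Tek, 2.02 for Mmrn1, 1.06 for Kdr and 0.29 for Eng. On recombinant ligand it was 23.9 for Klf4, 15.6 for Tek, 7.23 for Cd34, 6.63 for Klf2, 6.21 for Ptprb, 3.57 for Mmrn1, 1.203 for Kdr and 0.156 for Eng over 15 libraries. The tables were normalized separately, so the different place of Tek and Klf2 between them was not tested. Eng was close to the limit of detection, at 5 to 30 reads per library over feeders and 3 to 21 on recombinant ligand, and the count floor of 3 reads covers counting error only. Kdr was also low, at 65 to 407 reads per library across the 3 tables.

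Over ligand feeders, Klf2 and Klf4 fell and Ptprb rose between 6 h and 24 h. At 24 h Cd34 was lower over both ligands than over OP9-GFP. Calls here rest on adjusted p-values below 0.05 from limma, fitted across every listed gene. Over OP9-Dll4 at 6 h 0 of 8 members were called, against 0.0072% of all genes, and over OP9-Jag1 at 6 h 0 of 8 against 0.101%. Over OP9-Dll4 at 24 h 1 of 8 was called, against 0.511%, and over OP9-Jag1 at 24 h 2 of 8 against 2.02%. Same-numbered libraries of a time deviated together, and with the replicate number as a block within each time these counts were 1 (1.17% of all genes), 2 (3.36%), 4 (5.82%) and 4 (10.9%), every one of them lower over the ligand. Between OP9-Dll4 and OP9-Jag1, 0 members were called at 6 h (0% of genes) and 0 at 24 h (0.0288%). At an unadjusted p under 0.05 at 6 h, limma gave 2 members over OP9-Dll4, where 539 of 13886 genes passed, and 3 over OP9-Jag1, where 692 passed. Between the ligands it gave 0 members, where 258 genes passed at 6 h and 267 at 24 h. edgeR and DESeq2 on recovered reads called 0 members in these 4 comparisons as well.

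MEEC of the 24 h groups were seeded more sparsely than those of the 6 h groups. Time and seeding thus cannot be told apart in any change with time given here. Between 24 h and 6 h, 3 of 8 members were called over OP9-Dll4 (17.4% of all genes), 3 over OP9-Jag1 (14.7%) and 4 over OP9-GFP (19.2%). Without the 6 h libraries numbered 2, an alternative chosen after seeing the data, these counts were again 3, 3 and 4. The difference of the Dll4 effect between the times was called for 0 members (0.0072% of genes), as was that of the Jag1 effect (0.0072%). edgeR and DESeq2 gave 0 calls. At an unadjusted p under 0.05, Cd34 alone of the members passed in each, where 390 of 13886 genes passed for Dll4 and 480 for Jag1. At 24 h against 6 h over OP9-GFP, 2 of 5 listed leukocyte and erythroid markers were lower, with a summed signal of 5.40 to 6.97 at 24 h against 10.9 to 16.4 at 6 h. Of the 12 stromal markers 1, Thy1, was lower, and the stromal sum was 5972 to 8996 at 24 h against 6702 to 10080 at 6 h. The part of these markers in the members' changes with time was not tested. In bulk libraries, fewer cells of a type and less RNA per cell cannot be told apart.

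**Figure D1:**
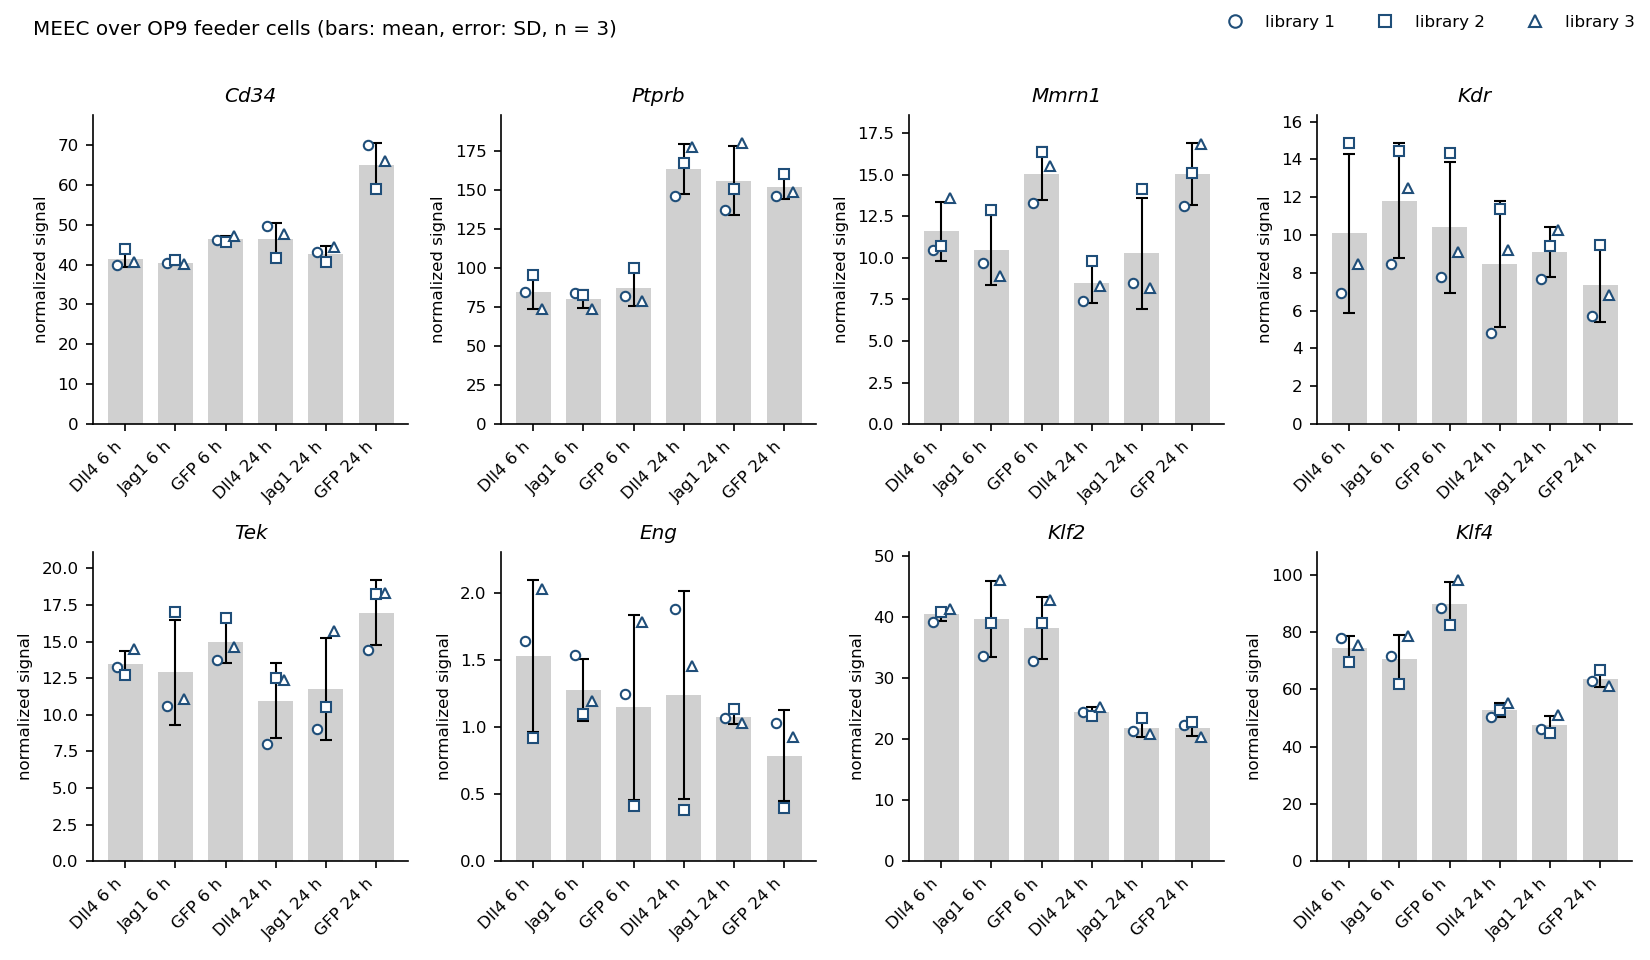
Normalized signal (vertical axes, from 0) of the 8 listed members in MEEC over OP9-Dll4, OP9-Jag1 and OP9-GFP feeders at 6 h and 24 h, with bars for the mean, error bars for the SD (n = 3) and symbols for libraries 1 to 3. Cd34 is highest over OP9-GFP at 24 h (58.9 to 69.9), Klf2 is lower at 24 h over every feeder, and Kdr is highest in the 6 h libraries numbered 2 (14.3 to 14.9).

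Cd34 (chromosome 1, 194938819 to 194961279, plus strand) had a signal of 39.8, 43.9 and 40.7 over OP9-Dll4 and 40.5, 41.0 and 40.0 over OP9-Jag1 at 6 h, against 46.1, 45.6 and 47.2 over OP9-GFP. Its 24 h signal was 49.6, 41.7 and 47.6 with OP9-Dll4 and 43.0, 40.7 and 44.5 with OP9-Jag1, against 69.9, 58.9 and 66.0 over OP9-GFP. Every ligand library lay below every OP9-GFP library of its time. At 24 h the difference was -0.48 ± 0.07 over OP9-Dll4 (log2 of signal + 1, ± SE, adjusted p = 0.0072) and -0.59 ± 0.07 over OP9-Jag1 (adjusted p = 0.00042). At 6 h it was -0.16 ± 0.07 over OP9-Dll4 (adjusted p = 1) and -0.19 ± 0.07 over OP9-Jag1 (adjusted p = 0.74, or 0.04 with the replicate block within each time). Cd34 rose with time over OP9-GFP by 0.48 ± 0.07 (adjusted p = 0.00042), while over OP9-Dll4 the time difference was 0.15 (95% interval 0.00 to 0.31, adjusted p = 0.15) and over OP9-Jag1 0.08 (-0.08 to 0.23). The Jag1 effect at 24 h minus that at 6 h was -0.40 ± 0.10 (adjusted p = 1, or 0.0059 with the replicate block within each time), and the Dll4 effect differed by -0.32 ± 0.10 (adjusted p = 1). The 24 h calls of Cd34 held in each fit that left out 1 library.

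Klf4 (chromosome 4, 55527143 to 55532466, minus strand) fell over OP9-Jag1 at 24 h and fell with time over each feeder. Its signal at 24 h was 50.5, 52.9 and 55.3 over OP9-Dll4 and 46.2, 44.8 and 51.2 over OP9-Jag1, against 63.0, 66.8 and 61.1 over OP9-GFP. At 6 h it was 77.9, 69.7 and 75.5 over OP9-Dll4 and 71.5, 62.0 and 78.6 over OP9-Jag1, against 88.4, 82.5 and 98.2 over OP9-GFP. No ligand library reached the lowest OP9-GFP library of its time. The 24 h difference was -0.42 ± 0.09 over OP9-Jag1 (adjusted p = 0.014) and -0.26 ± 0.09 over OP9-Dll4 (adjusted p = 0.31, or 0.0068 with the replicate block within each time). The 6 h difference was -0.34 ± 0.09 over OP9-Jag1 (adjusted p = 0.2, or 0.0016 with that block) and -0.27 ± 0.09 over OP9-Dll4 (adjusted p = 0.82, or 0.025 with that block). The OP9-Jag1 call at 24 h was lost without OP9-GFP library 2, OP9-Jag1 library 1 or OP9-Jag1 library 2, with differences of -0.48 to -0.38 over the 6 fits that left out 1 library. At 24 h against 6 h, Klf4 differed by -0.48 over OP9-Dll4, -0.56 over OP9-Jag1 and -0.49 over OP9-GFP (SE 0.09 each), with adjusted p = 0.0012, 0.00041 and 0.0012 in that order.

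Klf2 (chromosome 8, 72319033 to 72321656, plus strand) fell with time over each feeder and was not called for a ligand. At 24 h its signal was 24.4, 23.7 and 25.2 over OP9-Dll4, 21.2, 23.4 and 20.7 over OP9-Jag1 and 22.3, 22.7 and 20.3 over OP9-GFP. At 6 h it was 39.1, 40.8 and 41.3 over OP9-Dll4, 33.6, 39.1 and 46.0 over OP9-Jag1 and 32.7, 39.1 and 42.8 over OP9-GFP. Every 24 h library lay below every 6 h library, and the OP9-Dll4 libraries lay above the others at 24 h. The time difference was -0.70 ± 0.10 over OP9-Dll4 (adjusted p = 0.00036), -0.82 ± 0.10 over OP9-Jag1 (adjusted p = 0.0001) and -0.78 ± 0.10 over OP9-GFP (adjusted p = 0.00014). At 24 h the ligand difference was 0.16 over OP9-Dll4 (95% interval -0.06 to 0.38) and 0.00 over OP9-Jag1 (-0.22 to 0.22), without a call in either fit.

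Ptprb (chromosome 10, 116275523 to 116389535, plus strand) rose with time over each feeder. At 24 h its signal was 146, 167 and 178 over OP9-Dll4, 137, 151 and 180.3 over OP9-Jag1 and 146, 161 and 149 over OP9-GFP. At 6 h it was 84.8, 95.6 and 74.0 over OP9-Dll4, 84.3, 82.9 and 73.7 over OP9-Jag1 and 82.1, 100.1 and 79.2 over OP9-GFP. The times did not overlap over any feeder, and ligand and OP9-GFP libraries overlapped at both times. The time difference was 0.94 ± 0.11 over OP9-Dll4 (adjusted p = 7.2e-05), 0.94 ± 0.11 over OP9-Jag1 (adjusted p = 6.9e-05) and 0.80 ± 0.11 over OP9-GFP (adjusted p = 0.00022). At 24 h the ligand difference was 0.10 over OP9-Dll4 (95% interval -0.14 to 0.34) and 0.03 over OP9-Jag1 (-0.21 to 0.27).

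Mmrn1 (chromosome 6, 60924976 to 60989378, plus strand) had a signal of 7.40, 9.80 and 8.31 over OP9-Dll4 and 8.51, 14.1 and 8.16 over OP9-Jag1 at 24 h, against 13.1, 15.1 and 16.9 over OP9-GFP. The OP9-Dll4 libraries lay below the OP9-GFP ones, and OP9-Jag1 library 2 lay among them. The difference was -0.76 ± 0.18 over OP9-Dll4 (adjusted p = 0.081, or 0.002 with the replicate block within each time) and -0.54 ± 0.18 over OP9-Jag1 (adjusted p = 0.18, or 0.015 with that block). Without OP9-Jag1 library 2 the OP9-Jag1 difference was -0.78 and passed. Tek (chromosome 4, 94739289 to 94874976, plus strand) had 7.99, 12.5 and 12.4 over OP9-Dll4 and 9.06, 10.6 and 15.7 over OP9-Jag1 at 24 h, against 14.4, 18.2 and 18.3 over OP9-GFP. Its differences were -0.61 ± 0.20 (adjusted p = 0.32, or 0.0058 with that block) over OP9-Dll4 and -0.52 ± 0.20 (adjusted p = 0.28, or 0.011 with that block) over OP9-Jag1. At 6 h Mmrn1 stood at 10.5, 10.7 and 13.6 over OP9-Dll4 and 9.68, 12.9 and 8.92 over OP9-Jag1, against 13.3, 16.4 and 15.6 over OP9-GFP. Tek held 10.6 to 17.01 in the 6 h libraries. Neither gene passed at 6 h in either fit, and the Mmrn1 differences were -0.36 ± 0.18 with OP9-Dll4 and -0.49 ± 0.18 with OP9-Jag1. Over OP9-Dll4 at 24 h, 4 of 7 listed cardiomyocyte markers were higher (0.511% of all genes called), with a summed signal of 55.5 to 87.0 against 37.9 to 43.2 over OP9-GFP. Myl2 and Actc1 held 0 reads in the OP9-GFP and OP9-Jag1 libraries of both times. Every listed gene reaches a signal of 1 in at least 3 libraries, so Myl2 and Actc1 were listed only through OP9-Dll4 libraries. Their higher signal there was thus set by the listing and is not a separate result. The part of these markers in the members' differences over OP9-Dll4 was not tested.

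Kdr (chromosome 5, 75932827 to 75978458, minus strand) was highest in the libraries numbered 2 over each feeder at 6 h. Its signal was 14.9 in OP9-Dll4 library 2, 14.4 in OP9-Jag1 library 2 and 14.3 in OP9-GFP library 2, while the other 6 h libraries held 6.95 to 12.5. At 24 h it was 4.82, 11.4 and 9.21 over OP9-Dll4, 7.65, 9.39 and 10.3 over OP9-Jag1 and 5.70, 9.49 and 6.80 over OP9-GFP. Its ligand differences ran from -0.06 over OP9-Dll4 at 6 h to 0.30 over OP9-Jag1 at 24 h with an SE of 0.30, and none passed. Eng (chromosome 2, 32646595 to 32682669, plus strand) stood at 0.378 to 2.03 over the 18 libraries, with no call.

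**Figure D2:**
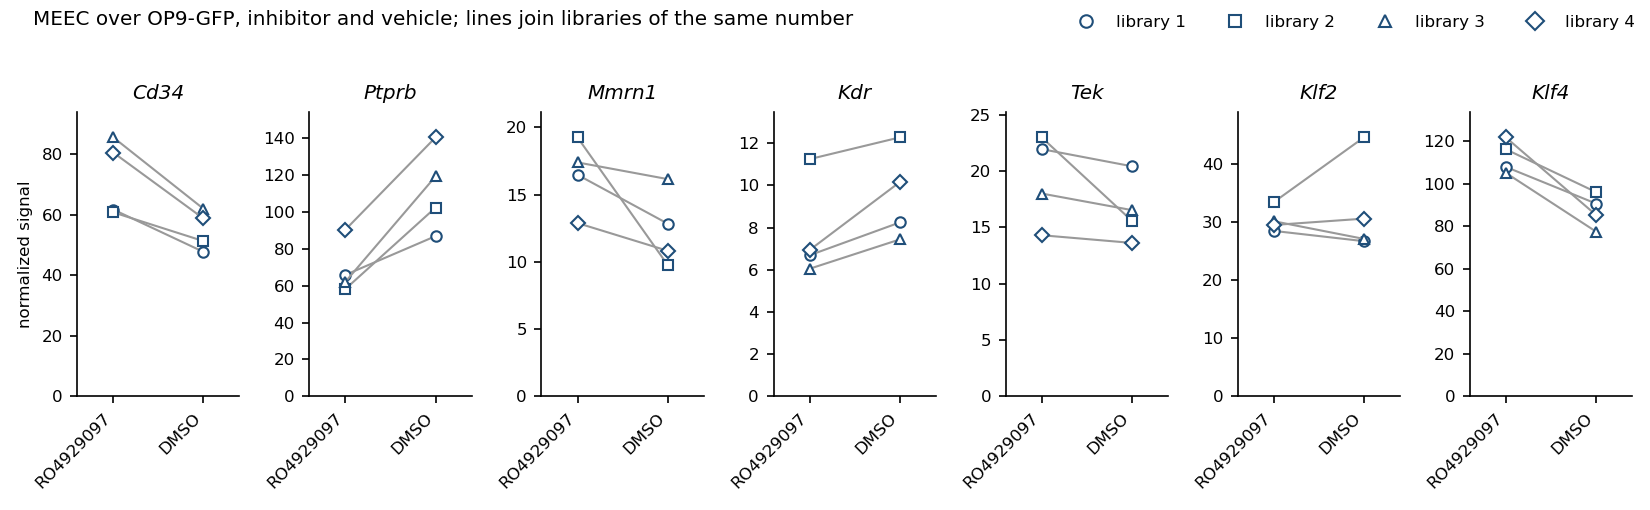
Normalized signal (vertical axes, from 0) of the 7 listed members in MEEC over OP9-GFP with RO4929097 (left) and with DMSO (right), with lines joining the 4 pairs of libraries of the same number. Ptprb is lower and Klf4 and Cd34 are higher with the inhibitor in 4 of 4 pairs.

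With the inhibitor over OP9-GFP, Klf4 rose and Ptprb was lower in every same-numbered pair. Of 7 listed members 1 was called, against 0.909% of all genes, and 3 were called with the replicate number as a block, against 3.29%. Klf4 had a signal of 108, 116, 105 and 122 with RO4929097, against 90.8, 96.2, 77.6 and 85.4 with DMSO. The groups did not overlap, and the difference was 0.37 ± 0.07 (adjusted p = 0.049, or 0.0076 with the block). Leaving out any of the 8 libraries ended the Klf4 call, with differences of 0.31 to 0.41. Ptprb had 65.8, 58.1, 62.1 and 90.3 with RO4929097, against 86.8, 102, 119 and 140.2 with DMSO. The groups overlapped, and it was lower in 4 of 4 pairs by -0.69 ± 0.16 (adjusted p = 0.09, or 0.002 with the block). Cd34 had 61.7, 60.7, 85.5 and 80.5 with RO4929097, against 47.7, 51.3, 61.9 and 58.7 with DMSO. The groups overlapped here too, and it was higher in 4 of 4 pairs by 0.38 ± 0.12 (adjusted p = 0.26, or 0.0054 with the block).

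Mmrn1 and Tek were higher and Kdr lower with the inhibitor in 4 of 4 pairs, without a call in either fit. Mmrn1 had 16.5, 19.3, 17.4 and 12.9 with RO4929097, against 12.8, 9.78, 16.2 and 10.8 with DMSO (0.40 ± 0.16, adjusted p = 0.39). Tek had 21.9, 23.0, 18 and 14.3 with RO4929097, against 20.4, 15.6, 16.5 and 13.6 with DMSO. Kdr had 6.69, 11.2, 6.05 and 6.93 with RO4929097, against 8.24, 12.3, 7.43 and 10.2 with DMSO. The groups overlapped for all 3 genes. Tek differed by 0.20 (95% interval -0.14 to 0.54) and Kdr by -0.28 (-0.70 to 0.13). Klf2 differed by -0.05 (-0.36 to 0.26), with DMSO library 2 at 44.6 above the other 7 libraries at 26.8 to 33.5. The summed signal of the 11 listed stromal markers was 5931 to 7118 with RO4929097 and 6155 to 8099 with DMSO, and 0 of them were called.

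On recombinant ligand, Ptprb, Mmrn1 and Cd34 moved in opposite directions with ligand and with inhibitor. Against DMSO, 3 of 8 members were called on rDLL4 (3.5% of all genes) and 3 on rJAG1 (9.58%). With RO4929097 on rDLL4, 3 of 8 were called against rDLL4 alone (10.7% of genes), and on rJAG1 6 of 8 against rJAG1 alone (18.4%). The 6 include Eng, which was listed only through the rJAG1 libraries, so its call was set by the listing. Ligand with inhibitor against DMSO gave 1 of 8 for rDLL4 (1.4%) and 1 of 8 for rJAG1 (0.94%). Between rDLL4 and rJAG1, 1 of 8 was called (0.231%), and with the inhibitor 0 of 8 (0% of genes). At an unadjusted p under 0.05, 0 members and 191 genes differed between the ligands with inhibitor, and edgeR and DESeq2 called 0 members. The inhibitor's effect on rDLL4 minus its effect on rJAG1 was called for 0 of 8 (0.0149%), with 0 by edgeR and 1 by DESeq2. At an unadjusted p under 0.05, 3 members passed there, as did 496 of 13407 genes. The comparisons share their ligand or DMSO libraries, so their values are given side by side and not as independent evidence.

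**Figure D3:**
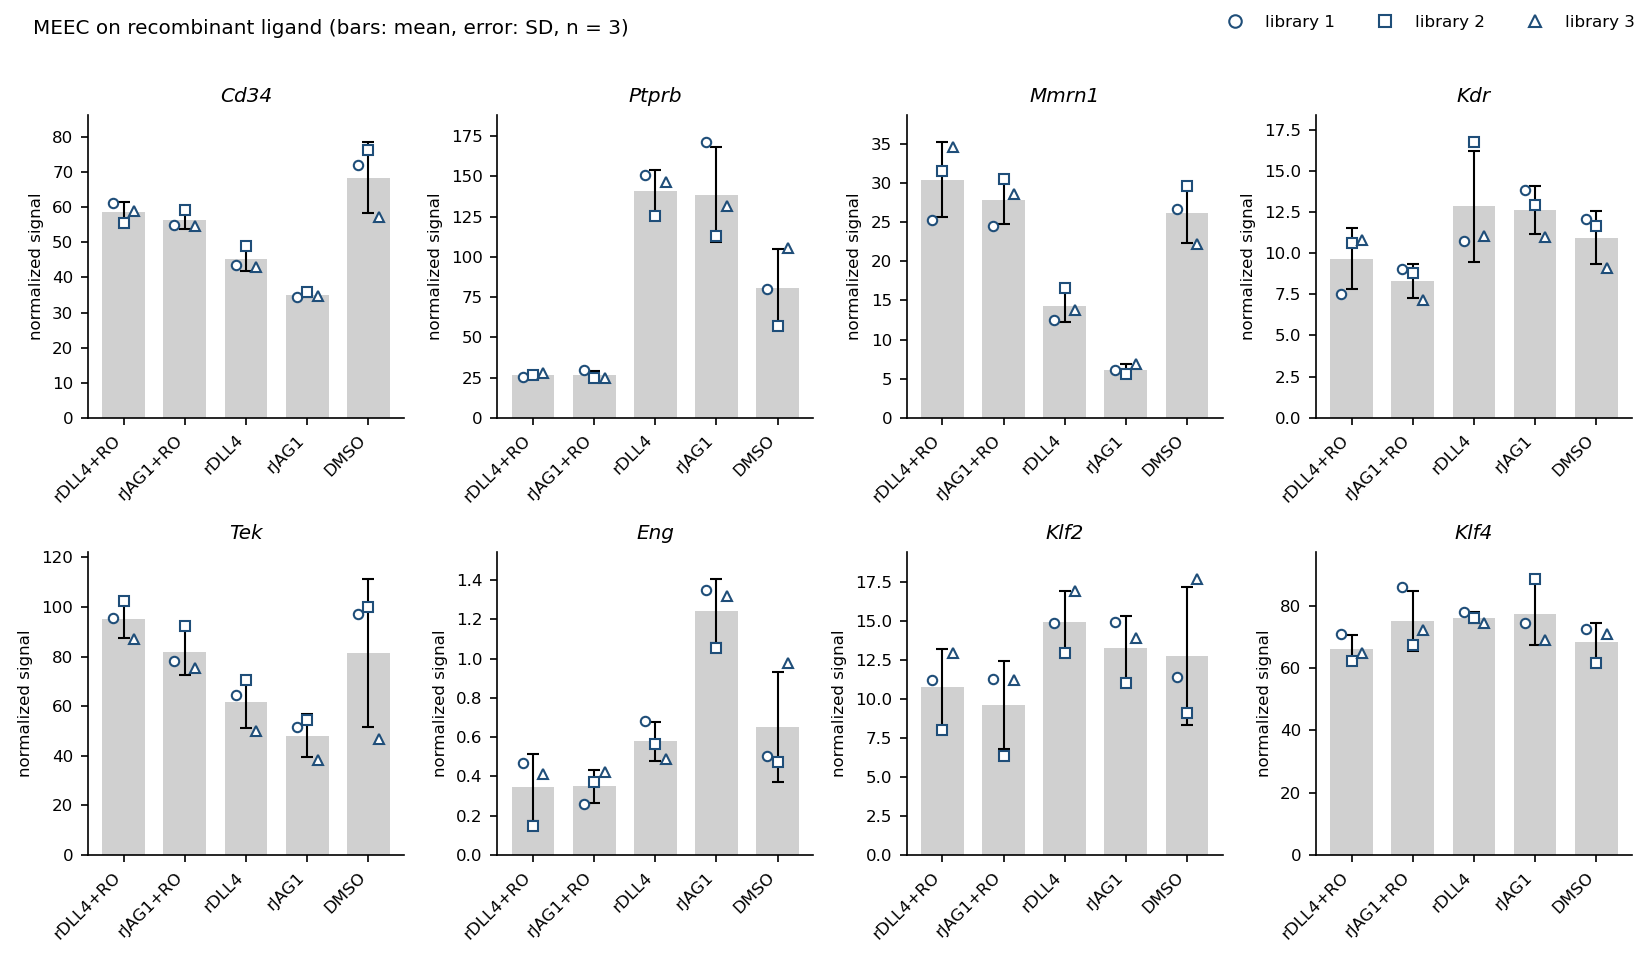
Normalized signal (vertical axes, from 0) of the 8 listed members in MEEC on rDLL4 or rJAG1 with RO4929097, on rDLL4 or rJAG1 alone, and in DMSO, with bars for the mean, error bars for the SD (n = 3) and symbols for libraries 1 to 3. Ptprb stands at 25.0 to 29.8 in the 6 libraries with inhibitor, against 57.2 to 171 in the other 9, and Mmrn1 is lowest on rJAG1 (5.53 to 6.83).

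Ptprb differed most between groups among the members, with the highest group mean (rDLL4) 5.30 times the lowest (rDLL4 with RO4929097). Its signal was 25.5, 26.4 and 27.7 on rDLL4 with RO4929097 and 29.8, 25.0 and 25.0 on rJAG1 with RO4929097. It was 151, 125 and 146 on rDLL4 and 171, 113 and 132 on rJAG1, against 80.05, 57.2 and 105.6 in DMSO. The 6 libraries with inhibitor lay below all others, and the 6 with ligand alone lay above DMSO. Ptprb rose by 0.83 ± 0.18 on rDLL4 (adjusted p = 0.015) and by 0.79 ± 0.18 on rJAG1 (adjusted p = 0.0084) against DMSO. With RO4929097 it differed by -2.36 ± 0.18 from rDLL4 alone (adjusted p = 6.3e-07) and by -2.33 ± 0.18 from rJAG1 alone (adjusted p = 2.6e-07). With the inhibitor it also stood below DMSO, by -1.53 ± 0.18 on rDLL4 (adjusted p = 0.00068) and by -1.53 ± 0.18 on rJAG1 (adjusted p = 0.00055). The rDLL4 and rJAG1 libraries overlapped, with a difference of 0.04 (95% interval -0.34 to 0.42). The rDLL4 call against DMSO was lost without DMSO library 2, rDLL4 library 1 or rDLL4 library 3, with differences of 0.60 to 1.04, while the calls with inhibitor held in each fit that left out 1 library. In a fit of only the groups compared, neither ligand's call against DMSO held.

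Mmrn1 fell on each ligand and rose with the inhibitor, where its libraries overlapped those of DMSO. Its signal was 25.2, 31.5 and 34.5 on rDLL4 with RO4929097 and 24.4, 30.5 and 28.5 on rJAG1 with RO4929097. It was 12.4, 16.6 and 13.8 on rDLL4 and 6.14, 5.53 and 6.83 on rJAG1, against 26.7, 29.6 and 22.1 in DMSO. The rJAG1, rDLL4 and DMSO groups did not overlap. The difference from DMSO was -0.83 ± 0.14 on rDLL4 (adjusted p = 0.0031) and -1.92 ± 0.14 on rJAG1 (adjusted p = 5.8e-07). It was the only member that passed between rDLL4 and rJAG1 (1.09 ± 0.14, adjusted p = 0.0031), where it ranked number 6 by p among 13407 genes. RO4929097 raised it by 1.04 ± 0.14 on rDLL4 (adjusted p = 0.00016) and by 2.01 ± 0.14 on rJAG1 (adjusted p = 1.1e-07). The difference between these inhibitor effects was -0.97 ± 0.20 (adjusted p = 0.26). With inhibitor it differed from DMSO by 0.21 (95% interval -0.09 to 0.51) on rDLL4 and by 0.09 (-0.21 to 0.39) on rJAG1. Its calls held in each fit that left out 1 library.

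Cd34 had a signal of 61.2, 55.6 and 59.1 on rDLL4 with RO4929097 and 54.8, 59.2 and 54.8 on rJAG1 with RO4929097. It was 43.5, 49.0 and 43.0 on rDLL4 and 34.5, 36.0 and 34.8 on rJAG1, against 72.0, 76.2 and 57.1 in DMSO. The order of the means from high to low was DMSO, rDLL4 with inhibitor, rJAG1 with inhibitor, rDLL4 and rJAG1. The first 3 groups overlapped, and rDLL4 and rJAG1 each stood apart. Cd34 fell by 0.58 ± 0.09 on rDLL4 (adjusted p = 0.0021) and by 0.93 ± 0.09 on rJAG1 (adjusted p = 8.1e-06). RO4929097 raised it by 0.37 ± 0.09 on rDLL4 (adjusted p = 0.017) and by 0.67 ± 0.09 on rJAG1 (adjusted p = 0.00011). In a fit of only the groups compared, the Cd34 call on rDLL4 against DMSO did not hold (adjusted p = 0.068), while that on rJAG1 did (0.0031). The rDLL4 call with inhibitor was lost without library 1 or 3 of either group, with differences of 0.34 to 0.43. With inhibitor, Cd34 differed from DMSO by -0.21 ± 0.09 on rDLL4 (adjusted p = 0.38) and by -0.27 ± 0.09 on rJAG1 (adjusted p = 0.27). Without DMSO library 3 these differences were -0.33 (adjusted p = 0.044) and -0.39 (adjusted p = 0.018), which moved each count against DMSO to 2 members. The ligands differed by 0.35 ± 0.09 for rDLL4 against rJAG1 (adjusted p = 0.19).

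Tek had a signal of 95.7, 102.3 and 87.3 on rDLL4 with RO4929097 and 78.0, 92.4 and 75.3 on rJAG1 with RO4929097. It was 64.4, 70.6 and 50.0 on rDLL4 and 51.5, 54.4 and 38.5 on rJAG1, against 97.1, 99.9 and 46.8 in DMSO. DMSO library 3 lay within the range of the ligand libraries, and both other DMSO libraries lay above them. Tek rose with inhibitor on rJAG1 by 0.77 ± 0.23 (adjusted p = 0.028), a call that was lost without rJAG1 library 3 or any rJAG1 with RO4929097 library, with differences of 0.61 to 0.86. On rDLL4 the inhibitor difference was 0.63 ± 0.23 (adjusted p = 0.098), without overlap between the groups, and it passed with library weights (adjusted p = 0.0083), with only the groups compared (0.005) and in DESeq2 (0.035). Against DMSO, Tek differed by -0.33 ± 0.23 on rDLL4 (adjusted p = 0.73) and by -0.68 ± 0.23 on rJAG1 (adjusted p = 0.077, or 0.0038 with the replicate block). The rJAG1 difference also passed in edgeR (adjusted p = 0.044), in DESeq2 (0.0066) and with library weights, and the rDLL4 difference with library weights (0.0083). Without DMSO library 3 these were -0.68 (adjusted p = 0.014) and -1.03 (adjusted p = 0.00026). In that fit Eng passed as well on rJAG1 (0.59, adjusted p = 0.031), so that 5 members were called. Eng was listed only through the rJAG1 libraries, so its higher signal there was set by the listing and is not a separate result.

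Kdr had a signal of 7.51, 10.6 and 10.8 on rDLL4 with RO4929097 and 9.03, 8.77 and 7.13 on rJAG1 with RO4929097. It was 10.8, 16.7 and 11.1 on rDLL4 and 13.9, 12.9 and 11 on rJAG1, against 12.1, 11.7 and 9.07 in DMSO. Kdr fell with inhibitor on rJAG1 by 0.55 ± 0.17 (adjusted p = 0.04), and the groups did not overlap. That call held in 1 of 6 fits that left out 1 library (-0.64 to -0.45), and it was lost without rJAG1 library 1, rJAG1 library 2 or any library with inhibitor. On rDLL4 the inhibitor difference was -0.37 ± 0.17 (adjusted p = 0.23). Neither ligand alone passed against DMSO, at 0.20 (95% interval -0.18 to 0.57) on rDLL4 and 0.19 (-0.18 to 0.57) on rJAG1.

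Eng had a signal of 0.258, 0.37 and 0.422 on rJAG1 with RO4929097, against 1.35, 1.06 and 1.32 on rJAG1, and 0.505, 0.472 and 0.977 in DMSO. It was lower with inhibitor on rJAG1 by 0.73 ± 0.16 (adjusted p = 0.0044), from few reads. The log2 of signal + 1 understates the change of so low a gene. Every listed gene reaches a signal of 1 in at least 3 libraries, and Eng did so only in the rJAG1 libraries. Its lower signal with inhibitor was thus set by the listing and is not a separate result. The call held under every setting in which Eng was tested, while the difference was -0.27 with a pseudocount of 4 and -1.89 in DESeq2 on recovered reads. On rDLL4 Eng was 0.471, 0.149 and 0.413 with RO4929097 and 0.684, 0.562 and 0.488 without it (-0.24 ± 0.16, adjusted p = 0.41).

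Klf2 and Klf4, which differed between 24 h and 6 h over the feeders, were not called in any comparison on recombinant ligand. Klf2 had 11.2, 8.05 and 13.0 on rDLL4 with RO4929097 and 11.3, 6.35 and 11.2 on rJAG1 with RO4929097. It had 14.9, 12.9 and 16.9 on rDLL4 and 14.9, 11.04 and 13.9 on rJAG1, against 11.4, 9.12 and 17.7 in DMSO. In each of the 5 groups library 2 was lowest, and each library with inhibitor lay below the ligand library of the same number. With inhibitor Klf2 differed by -0.45 ± 0.24 on rDLL4 (adjusted p = 0.28) and by -0.46 ± 0.24 on rJAG1 (adjusted p = 0.21, or 0.016 with the replicate block). The rDLL4 difference of Klf2 passed with that block as well. Klf4 lay between 61.7 and 88.6 over the 15 libraries. Its inhibitor difference was -0.21 (95% interval -0.42 to 0.01) on rDLL4 and -0.04 (-0.26 to 0.18) on rJAG1.

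**Figure D4:**
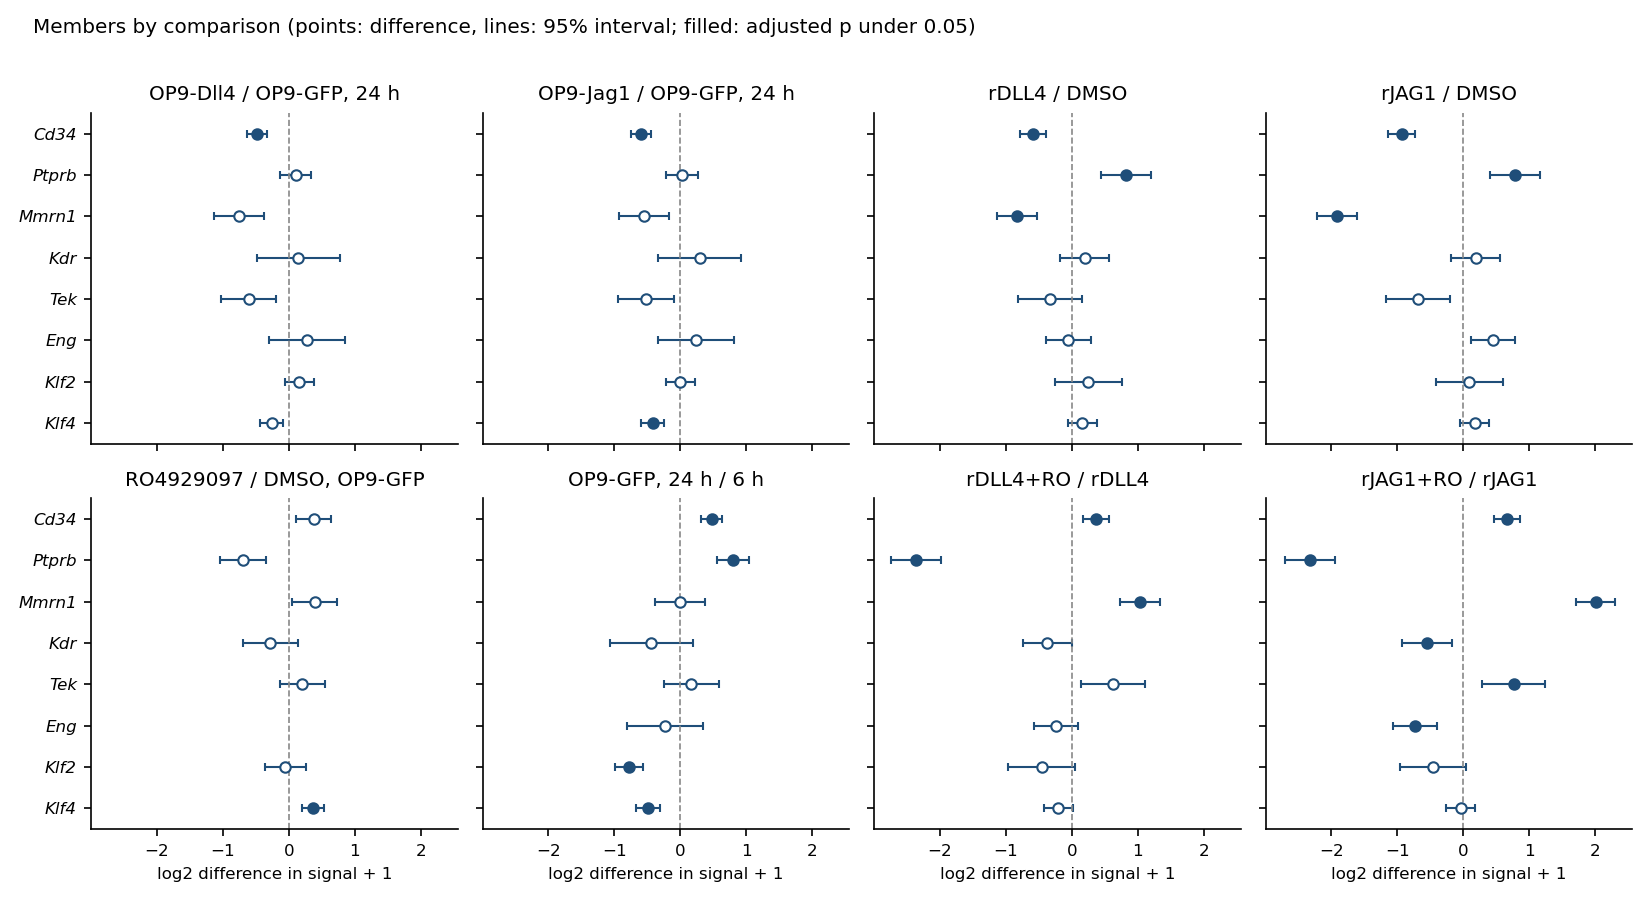
Log2 difference in signal + 1 (horizontal axes) of each member for 8 comparisons, named as numerator and denominator above each panel, with 95% intervals and filled points at an adjusted p under 0.05. Cd34 and Mmrn1 lie left of 0 for the ligands and right of 0 for the inhibitor on recombinant ligand, Ptprb lies at -2.36 and -2.33 in the inhibitor panels on ligand, and Klf2 lies at -0.78 for 24 h against 6 h.

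On recombinant ligand, where no feeder was present, genes listed as stromal or cardiomyocyte markers moved too. Of 12 listed stromal markers, 4 rose and 0 fell on rDLL4 (3.5% of all genes called) and 5 rose and 1 fell on rJAG1 (9.58%) against DMSO. With inhibitor 1 rose and 4 fell on rDLL4 (10.7%) and 3 rose and 6 fell on rJAG1 (18.4%). Their summed signal was 8976 to 9872 on rDLL4 with RO4929097, 8963 to 9923 on rJAG1 with RO4929097, 8516 to 9938 on rDLL4, 7980 to 8998 on rJAG1 and 6383 to 9854 in DMSO. Of 3 listed cardiomyocyte markers Myl7 rose and Tnnt2 fell with inhibitor on both ligands. The relation of these genes to the members' changes was not tested.

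Of 38 genes in a list of other endothelial identity genes, 16 were listed over ligand feeders, and 0 of them were called for either ligand at 6 h or 24 h. At 24 h against 6 h, 2 of 16 fell over OP9-Dll4 (17.4% of all genes called), 2 over OP9-Jag1 (14.7%) and 3 over OP9-GFP (19.2%), and none rose. These shares were not above those of all genes. Over OP9-GFP the list median was -0.13, against -0.01 for all genes. The genes that fell there were the VEGF receptor gene Flt1 (1.049 ± 0.233 at 24 h and 6.70 ± 5.04 at 6 h, adjusted p = 0.018), the blood and endothelial factor gene Gata2 (-0.54 ± 0.16, adjusted p = 0.026) and Thsd1 (-0.77 ± 0.25, adjusted p = 0.044). On recombinant ligand 14 were listed, and with inhibitor Ets1, Elk3, which encode ETS factors, and the junction gene Jam2 fell on both ligands, which is 3 of 14 on rDLL4 (10.7% of all genes called) and 3 of 14 on rJAG1 (18.4%). Ets1 stood at 50.4 ± 2.81 on rDLL4 with RO4929097 and 83.6 ± 5.80 on rDLL4, and at 54.4 ± 5.59 on rJAG1 with RO4929097 and 97.6 ± 8.33 on rJAG1 (SD, n = 3). The list median was -0.055 on rDLL4 and 0.035 on rJAG1, against 0.005 for all genes in both. Ets1 rose on rJAG1 against DMSO (0.49 ± 0.14, adjusted p = 0.04) and was the 1 gene of the list called there (9.58% of all genes), while 0 were called on rDLL4 (3.5%).

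In a list of 36 genes of flow sensing and the KLF2 and KLF4 axis, 30 were listed over ligand feeders and 29 on recombinant ligand. At 24 h 2 fell and none rose over OP9-Dll4 (0.511% of all genes called, list median 0.01, all genes 0.002), and 5 rose and 2 fell over OP9-Jag1 (2.02%, 0.05 and 0.004). At 24 h against 6 h, 2 rose and 4 fell over OP9-Dll4 (17.4%), 3 rose and 2 fell over OP9-Jag1 (14.7%), and 2 rose and 6 fell over OP9-GFP (19.2%). Edn1, the endothelin gene that KLF2 is known to repress, fell at 24 h, to 20.9 ± 1.45 with OP9-Dll4 and 15.8 ± 0.78 with OP9-Jag1, against 33.6 ± 1.83 over OP9-GFP (SD, n = 3). The gap junction gene Gja1 fell over OP9-Jag1 by 0.42 ± 0.08 (adjusted p = 0.0078). Against DMSO, 4 rose and 1 fell on rDLL4 (3.5% of all genes, list median 0.12), and 6 rose and 4 fell on rJAG1 (9.58%, 0.09). On recombinant ligand the thrombomodulin gene Thbd, which KLF2 is known to raise, stood at 250.1 ± 20.1 on rDLL4 and 276 ± 42.7 on rJAG1, against 142 ± 9.44 in DMSO. With inhibitor 3 rose and 5 fell on rDLL4 (10.7% of all genes, median -0.05) and 6 rose and 6 fell on rJAG1 (18.4%, median -0.09), against a median of 0.005 for all genes. Among them were the water channel gene Aqp1, by 3.30 ± 0.22 on rDLL4 (adjusted p = 1.8e-07) and 3.59 ± 0.22 on rJAG1 (adjusted p = 2.4e-08), and Thbd, by -0.86 ± 0.11 (adjusted p = 9.2e-05) and -1.02 ± 0.11 (adjusted p = 8.5e-06). With inhibitor over OP9-GFP 1 of 30 was called (0.909% of all genes), the caveolin gene Cav1 (597 ± 38.1 with RO4929097 against 868 ± 92.0 with DMSO, adjusted p = 0.017).

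Ligands, co-receptors and partners of the members made another list of 28 genes, with 24 listed over ligand feeders and 22 on recombinant ligand. Angpt1, which encodes the activating ligand of Tek, rose on rDLL4 by 0.93 ± 0.24 (adjusted p = 0.044) and on rJAG1 by 1.48 ± 0.24 (adjusted p = 0.0007), while the Tek difference from DMSO passed on rJAG1 with the replicate block (adjusted p = 0.0038) but not without it (0.077), and on rDLL4 in neither fit (0.24 with the block). With inhibitor Angpt1 stood at 0.30 ± 0.29 on rDLL4 and 0.399 ± 0.191 on rJAG1, against 2.53 ± 0.94 on rDLL4 and 4.11 ± 1.13 on rJAG1. The inhibitor levels were close to the count floor of 3 reads, a signal of 0.127 to 0.226 in those libraries. They were also below the signal of 1 that a listed gene must reach in at least 3 libraries. Angpt1 was thus listed through other groups, and its lower signal with inhibitor is not separate from the listing. The VEGF family gene Vegfd fell on both recombinant ligands (-0.65 ± 0.15, adjusted p = 0.027 on rDLL4 and -1.15 ± 0.15, adjusted p = 0.00012 on rJAG1) and at 24 h over both feeders (-0.52 ± 0.10, adjusted p = 0.032 over OP9-Dll4 and -0.58 ± 0.10, adjusted p = 0.0057 over OP9-Jag1). The placental growth factor gene Pgf had a 24 h signal of 3.63 ± 0.20 with OP9-Dll4 and 4.95 ± 0.64 with OP9-Jag1, against 1.16 ± 0.04 over OP9-GFP, and was called in both. In all, 2 rose and 1 fell on rDLL4 (3.5% of all genes called, list median 0.07) and 4 rose and 1 fell on rJAG1 (9.58%, 0.02). With inhibitor 1 rose and 5 fell on rDLL4 (10.7%, -0.13) and 2 rose and 5 fell on rJAG1 (18.4%, -0.05), against medians of -0.001 to 0.005 for all genes. At 24 h, 1 rose and 1 fell over each ligand (0.511% for OP9-Dll4, 2.02% for OP9-Jag1). More of the list was called with time, where 9 rose and 3 fell over OP9-Dll4 (17.4%, list median 0.13), 9 rose and 1 fell over OP9-Jag1 (14.7%, 0.13), and 7 rose and 2 fell over OP9-GFP (19.2%, 0.12), against medians of -0.012 to -0.004 for all genes.

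Over the 18 libraries with ligand feeders, after centring each time, the 1 gene among 11022 whose log2 signal followed each member most closely was Grb10 for Cd34 (Pearson r of 0.884), Wdr74 for Klf2 (0.814), Anapc1 for Klf4 (0.923), Depdc5 for Ptprb (0.932), Gcnt1 for Mmrn1 (0.86), Ubn1 for Kdr (0.93), Dock11 for Tek (0.882) and Vrk2 for Eng (0.866). These libraries share feeder, library number and depth, and the correlations describe likeness in them.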

How the data were processed

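Per the labels, RNA of MEEC cultures was sequenced in 41 libraries of 13 groups, given in 3 tables with 1 value per gene and library. The deposited values are a signal that the authors normalized by library. FastQC, cutadapt, RSEM, limma and GRCm38 are named in the submitters' processing notes. The strand setting and tool versions are not given in the sources used here. In each library 100.0% of values corresponded to whole reads (tolerance 0.01 reads), so reads and depth were recovered from the deposited signal; in the inhibitor table and 3 recombinant libraries the step rests on fewer low values.

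Each table was fitted on log2(signal + 1) with limma 3.58.1 (R 4.3.3, trend in the variance), all groups sharing 1 estimate of the spread, with Benjamini-Hochberg adjustment over all listed genes and a threshold of 0.05. Every listed gene reaches a signal of 1 in at least 3 libraries (4 in the inhibitor table). Tables were prepared with Python 3.11.15, numpy 2.4.6 and pandas 2.3.3. Alternatives were another pseudocount, a filter on mean signal, quantile normalization, a replicate block, fits of only the groups compared, library weights, each library left out, and edgeR 4.0.16 and DESeq2 1.42.0 on the recovered reads. The fits were checked on simulated data. Same-numbered libraries, by the numbers in the titles, deviated together in every pair (r of at least 0.111) in comparisons between groups of the same time. The exception was rDLL4 with RO4929097 against rDLL4. Between 24 h and 6 h the lowest r was 0.031 over OP9-Dll4, 0.08 over OP9-Jag1 and 0.056 over OP9-GFP. The 10 members and all lists were chosen with earlier results of these data known. Every listed member is named. Of other lists, at most 4 called genes a comparison are named, by lowest adjusted p.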

Additional observations from a re-analysis of the deposited data

Results flagged for a closer look

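Kdr had a signal of 11.2 in library 2 of MEEC with RO4929097 over OP9-GFP, far above the other 3 libraries of that group at 6.05 to 6.93. It was the 1 such case among 14 sets of 4 values, which are 7 genes in the same 2 groups of 4 libraries and so not independent, and chance gives about 1 in 20 sets. Library 2 also held the highest Kdr signal in the DMSO group, at 12.3.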

How the results depend on the processing

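Of 32 called member values, 24 kept their call under every alternative and none changed sign. Both counts include the Eng call with inhibitor on rJAG1, which was set by the listing. Each count of 5 given below for rJAG1 against DMSO includes Eng too, where its higher signal was likewise set by the listing. Of 135 values without a call, 26 passed under at least 1 alternative and 51 changed sign. Counts of called members that moved by more than 1.5 times, to 0 or away from 0 come first, with the ranges over fits that left out 1 library. With the replicate block they became 1 for OP9-Jag1 at 6 h (0 as reported), 2 for OP9-Dll4 at 24 h (1), 3 for the inhibitor over OP9-GFP (1) and 5 for rDLL4 with RO4929097 against rDLL4 (3). In the last, where same-numbered libraries deviated together unevenly (r of 0.401, 0.1 and 0.078), Tek (adjusted p = 0.0062) and Klf2 (0.024) were added. With the block within each time they became 2 and 1 for OP9-Jag1 and OP9-Dll4 at 6 h, 4 and 4 for both at 24 h, 5 for OP9-Dll4 at 24 h against 6 h (3), and 1 for the Jag1 effect between times (0). The times were not paired by number. There Kdr over OP9-GFP (adjusted p = 0.014) and Cd34 (0.017) and Mmrn1 (0.026) over OP9-Dll4 passed with the block. With library weights the counts were 3 for OP9-Jag1 at 6 h, 1 for OP9-Dll4 at 6 h (0), 2 for OP9-Dll4 at 24 h, 5 for OP9-Dll4 with time, 2 for the inhibitor over OP9-GFP, 5 for rJAG1 (3), 2 for rDLL4 against rJAG1 (1), and 3 and 2 for rJAG1 and rDLL4 with inhibitor against DMSO (1 each). With only the groups compared, OP9-Dll4 at 24 h gave 2 and rDLL4 gave 1 (3). DESeq2 gave 2 for OP9-Dll4 at 24 h, 2 for the inhibitor over OP9-GFP and 1 for the difference of inhibitor effects (0). For the inhibitor over OP9-GFP, pseudocounts of 0.1 and 4, a mean signal of at least 4, quantile normalization and edgeR gave 0. Leaving out 1 library gave 1 to 2 for OP9-Jag1 at 24 h, 0 to 1 for the inhibitor over OP9-GFP, 3 to 5 for rJAG1, 2 to 4 for rDLL4, 4 to 5 for rJAG1 with RO4929097 against rJAG1 (6), 2 to 3 for rDLL4 with RO4929097 against rDLL4, and 1 to 2 for each ligand with inhibitor against DMSO, and it moved no other count. Alternatives chosen after seeing the data left out the 6 h libraries numbered 2, which gave 2 for OP9-Dll4 at 24 h, or DMSO library 3 and rJAG1 library 2, which gave 5 for rJAG1, 2 for rDLL4 against rJAG1, and 2 for each ligand with inhibitor against DMSO. Smaller moves were as follows. With the block, OP9-Jag1 at 24 h gained Mmrn1 (3), OP9-GFP with time gained Kdr (5), OP9-Dll4 with time gained Mmrn1 (4), rJAG1 gained Tek (4) and rJAG1 with RO4929097 against rJAG1 gained Klf2 (7). Kdr over OP9-GFP with time also passed with the block within each time (5). With only the groups compared, rJAG1 lost Ptprb (2), and rDLL4 lost Ptprb and Cd34. Tek was added for rJAG1 in edgeR and in DESeq2 (4 each), for rDLL4 with library weights and without DMSO library 3 and rJAG1 library 2 (4 each), and for rDLL4 with RO4929097 against rDLL4 with only the groups compared, with library weights, in DESeq2 and without those libraries (4 each). Without them rJAG1 with RO4929097 against rJAG1 lost Kdr (5), and with a mean signal of at least 4 it lacked Eng (5), which was not tested there. The causes of these moves were not tested. Over all genes, called genes for the inhibitor over OP9-GFP numbered 118, and 427 with the block. For OP9-Jag1 at 24 h they numbered 281, and 1512 with the block within each time. For rJAG1 against DMSO they numbered 1285, and 554 with only the groups compared. For rDLL4 against DMSO they numbered 469, and 1846 with library weights.

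Depth limited Eng most, at 3 to 30 reads per library, and Kdr next, at 65 to 407. Groups of 3 or 4 libraries of unknown independence set the precision elsewhere. Feeder and MEEC transcripts are both of mouse and were not separated.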
